A study of Rattus norvegicus with 5 samples.

Results

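Metabotropic glutamate receptors are G protein-coupled receptors that respond to glutamate more slowly than the ion channel receptors do. The 7 genes described here, *Grm2* to *Grm8*, were taken by their symbols from the 32883 genes of the deposited features files, and were chosen with earlier results of these data known. Their Ensembl identifiers in the files were ENSRNOG00000013171 (*Grm2*), ENSRNOG00000005519 (*Grm3*), ENSRNOG00000000487 (*Grm4*), ENSRNOG00000016429 (*Grm5*), ENSRNOG00000000233 (*Grm6*), ENSRNOG00000005662 (*Grm7*) and ENSRNOG00000021468 (*Grm8*). Single-nucleus RNA sequencing (snRNA-seq) was performed on tissue punches of the ventral tegmental area (VTA), the midbrain region that holds the mesolimbic dopamine neurons, from the flash-frozen brains of 5 adult male Sprague-Dawley rats. Punches from both sides were combined, and since the labels number 5 samples without naming animals, each library was taken as 1 rat and keeps its sample number, rat 1 to rat 5. The labels give saline as the only treatment and the study describes the rats as drug-naïve, so there was no second condition, and every comparison is between cell classes of the same rats.

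Group I receptors, *Grm5* among them, couple to Gq proteins and phospholipase C and are known mainly from postsynaptic membranes and glia. Group II (*Grm2*, *Grm3*) and group III (*Grm4*, *Grm6*, *Grm7*, *Grm8*) receptors couple to Gi/o proteins, which inhibit adenylyl cyclase, and many of them act on axon terminals, where they reduce transmitter release. In the midbrain, receptors of all groups are known to tune the glutamate and GABA input that dopamine neurons receive.

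The RefSeq promoter table used here (assembly GRCr8) was matched for 4 of the 7 genes, *Grm5*, *Grm6*, *Grm7* and *Grm8*. The 250 bases before the annotated start are shown for *Grm5*, *Grm7* and *Grm8*, because *Grm5* and *Grm7* were high in the same classes, neurons and oligodendrocyte precursor cells (OPCs), whereas *Grm8* was high in neurons and low in OPCs. Each is written 5′ to 3′ on the strand of its gene, and capitals mark the GC box (GGGCGG, or CCGCCC on the other strand, with no overlap between them here).
Grm5, chr1:150733503-150733752, plus strand: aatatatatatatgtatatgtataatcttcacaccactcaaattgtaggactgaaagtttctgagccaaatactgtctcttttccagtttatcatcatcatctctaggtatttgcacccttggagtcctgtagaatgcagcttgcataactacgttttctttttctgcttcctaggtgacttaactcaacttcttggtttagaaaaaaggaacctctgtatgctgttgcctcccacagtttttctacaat
Grm7, chr4:145286476-145286725, plus strand: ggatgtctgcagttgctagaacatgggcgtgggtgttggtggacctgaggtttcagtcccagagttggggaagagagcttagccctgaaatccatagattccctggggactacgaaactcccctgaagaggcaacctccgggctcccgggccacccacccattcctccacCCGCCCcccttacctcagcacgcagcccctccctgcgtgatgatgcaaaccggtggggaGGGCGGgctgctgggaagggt
Grm8, chr4:57687507-57687756, minus strand: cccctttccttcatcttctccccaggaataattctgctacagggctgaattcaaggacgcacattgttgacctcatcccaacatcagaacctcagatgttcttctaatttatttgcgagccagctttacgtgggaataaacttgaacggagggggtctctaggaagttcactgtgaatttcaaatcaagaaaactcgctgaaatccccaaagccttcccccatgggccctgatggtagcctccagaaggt
The *Grm7* window held 2 GC boxes and 9 CpG dinucleotides at 62% GC. The *Grm5* window held 0 GC boxes and 1 CpG at 36.4% GC, and the *Grm8* window 0 and 5 at 47.2% GC. Of the 33469 promoters in the table, 30.5% held at least 1 GC box in the same window, and the median CpG count was 5. Thus the windows of *Grm5* and *Grm7*, which shared their leading classes, lay far apart in base composition. These matches describe letters only.

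Barcodes with at least 600 unique molecular identifiers (UMIs, 1 for each captured RNA molecule), more than 200 and fewer than 5000 genes and under 5% mitochondrial UMIs were kept, 2733 to 18927 per rat and 35234 in all. Clusters made without any *Grm* gene gave 17967 nuclei in named classes, of which 5512 were neurons, 8887 oligodendrocytes, 1032 OPCs and 1339 astrocytes, and 15383 nuclei in clusters that could not be named were left out. Of these, 1899 came from rat 1 and 11454 from rat 2. Among them was a cluster of 1983 nuclei, 1754 from rat 2, that was led by *Slc6a3*, *Slc18a2* and *Th* but also held oligodendrocyte markers, so nuclei with dopaminergic markers were left out too. The libraries held 10193355 to 88576210 UMIs in all, and the median over kept barcodes was 980 to 3377 UMIs. Rat 3 made up over 80% of clusters of neurons, OPCs, oligodendrocytes and astrocytes, rat 2 of an oligodendrocyte (3143 nuclei) and a neuron cluster (48 nuclei), and rat 1 of an oligodendrocyte cluster (220 nuclei). Rat 1 gave only 100 neurons, so leaving out each rat and leaving out the clusters of 1 library are among the alternatives. Pairs of libraries shared 2 to 27 kept barcodes, at most 0.633% of the smaller library. Neuron markers summed to 40.1 to 64.2 per 10000 UMIs in neurons and 2.66 to 6.13 in oligodendrocytes. Oligodendrocyte markers summed to 208 to 324 in oligodendrocytes, and dopaminergic markers to 28.6 to 37.0 in dopaminergic-like neurons. The classes were named by these markers, so the sums describe the naming and do not test the dissection. A sub-cluster with the serotonergic marker *Tph2* and another with the cortical-type vesicular transporter *Slc17a7* were also present.

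The level of a gene is its UMIs per 10000 UMIs summed over the nuclei of a class in 1 rat. Differences are log2 ratios of these sums from edgeR's quasi-likelihood test with the rat as a block, and adjusted p values (Benjamini-Hochberg over all genes tested) under 0.05 were called. Each gene was tested across classes and never against another gene. Ratios to marker UMIs and correlations with other genes, given below, are descriptions. Free RNA was measured in barcodes under 100 UMIs of the same library. At the same rank by UMIs, below all kept barcodes, a barcode held 22, 558, 22, 218 and 260 UMIs in rats 1 to 5. In rats 2, 4 and 5 many barcodes between 100 and 600 UMIs thus lay outside this pool. In rat 2 the pool held 1802227 UMIs in 1205234 barcodes, against 2919595 in 568035 in rat 1. How well the pool stands for the free RNA in the kept barcodes was not tested. Of the 7 receptors, *Grm3*, *Grm5*, *Grm7* and *Grm8* passed the filter on low counts in the fit of neurons, oligodendrocytes, OPCs and astrocytes. *Grm2*, *Grm4* and *Grm6* did not pass it.

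*Grm3*, a group II receptor known from glia as well as neurons, was highest in oligodendrocytes. In oligodendrocytes its level was 60.2, 39.0, 31.4, 72.5 and 58.7 in rats 1 to 5, with a mean of 52.4 ± 16.8 (SD, n = 5). In astrocytes it was 5.68, 7.43, 9.94, 8.79 and 5.05, in OPCs 1.08, 5.33, 2.60, 3.05 and 1.41, and in neurons 2.11, 2.40, 1.72, 2.73 and 2.38. Oligodendrocytes lay above all the others in every rat with no overlap, and astrocytes lay above neurons with no overlap. The log2 difference of neurons from oligodendrocytes was -4.74 (SE 0.30, adjusted p = 1.1e-12), a 26.7-fold lower level in neurons. Oligodendrocytes exceeded OPCs by 4.60 (SE 0.31, adjusted p = 1e-11) and astrocytes by 3.05 (SE 0.28, adjusted p = 2.12e-09), also on the log2 scale. Thinned to 1000 UMIs per nucleus, 87.3% ± 8.67 (SD, n = 5 rats) of oligodendrocytes held at least 1 *Grm3* UMI, against 37.5% ± 9.16 of astrocytes, 15.1% ± 1.72 of neurons and 13.1% ± 6.80 of OPCs. Without thinning these shares were 91.9%, 57.1%, 43.7% and 21.9%. Thinning left out 710 oligodendrocytes, 235 astrocytes, 637 neurons and 101 OPCs with fewer UMIs, most of them from rat 3. That rat, the shallowest in these classes, kept 213 of 866 oligodendrocytes, 45 of 178 astrocytes, 26 of 105 OPCs and 1484 of 2106 neurons. Its thinned shares thus rest on its deeper nuclei. With thinning its *Grm3* share went from 9.52 to 23.1% in OPCs and from 34.3 to 51.1% in astrocytes.

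Oligodendrocyte RNA was found beside the lower *Grm3* levels. Free RNA held *Grm3* at 5.74, 3.76, 3.45, 13.4 and 5.68. This lay above the neurons of every rat, the astrocytes of rats 1, 4 and 5 and the OPCs of rats 1, 3, 4 and 5. Per 100 UMIs of the 8 oligodendrocyte markers, *Grm3* gave 22.6, 15.8, 9.68, 34.9 and 25.5 UMIs in the oligodendrocytes of rats 1 to 5, 19.7, 7.36, 11.9, 31 and 8.93 in astrocytes, and 17.8, 7.82, 14.9, 26.9 and 19.5 in neurons. Astrocytes and neurons thus held *Grm3* at or below the oligodendrocyte ratio, except in rat 3. In OPCs the ratio was 2.75, 5.33, 8.05, 9.02 and 4.17, below that of oligodendrocytes in every rat. These ratios were added after the levels were seen. Free RNA gave 2.79, 1.9, 1.41, 8.03 and 3.82 on this scale, below astrocytes and neurons in every rat and below OPCs in all but rat 1. Oligodendrocyte markers summed to 28.3 to 101 per 10000 UMIs in astrocytes, 32.3 to 100 in OPCs and 10.1 to 30.7 in neurons. Their part in these levels was not tested. The difference of neurons from astrocytes was -1.68 (SE 0.27, edgeR adjusted p = 1.13e-05), and with the free RNA profile subtracted it was -1.94 and not past the threshold (adjusted p = 0.0751). OPCs lay below astrocytes by a log2 difference of -1.54 (SE 0.29, adjusted p = 0.00012), with their ranges overlapping. The difference of neurons from OPCs was within their spread (-0.14, SE 0.28, adjusted p = 0.71), and its direction depended on the processing. Neurons were called lower with doublets kept (-1.10, adjusted p = 0.00064), with clusters centred per library (-0.74, adjusted p = 0.045) and with nuclei typed by their own markers (-0.90, adjusted p = 0.0191), while the difference turned positive, without a call, with free RNA subtracted (1.36, adjusted p = 0.279), after thinning (0.18, adjusted p = 0.657) and without rat 2 (0.30, adjusted p = 0.347). Microglia at 5.36 to 15.8 and vascular nuclei at 8.66 to 15.4 also held *Grm3*, together with oligodendrocyte marker sums of 67.7 to 157 and 61.3 to 126.

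**Figure D1:**
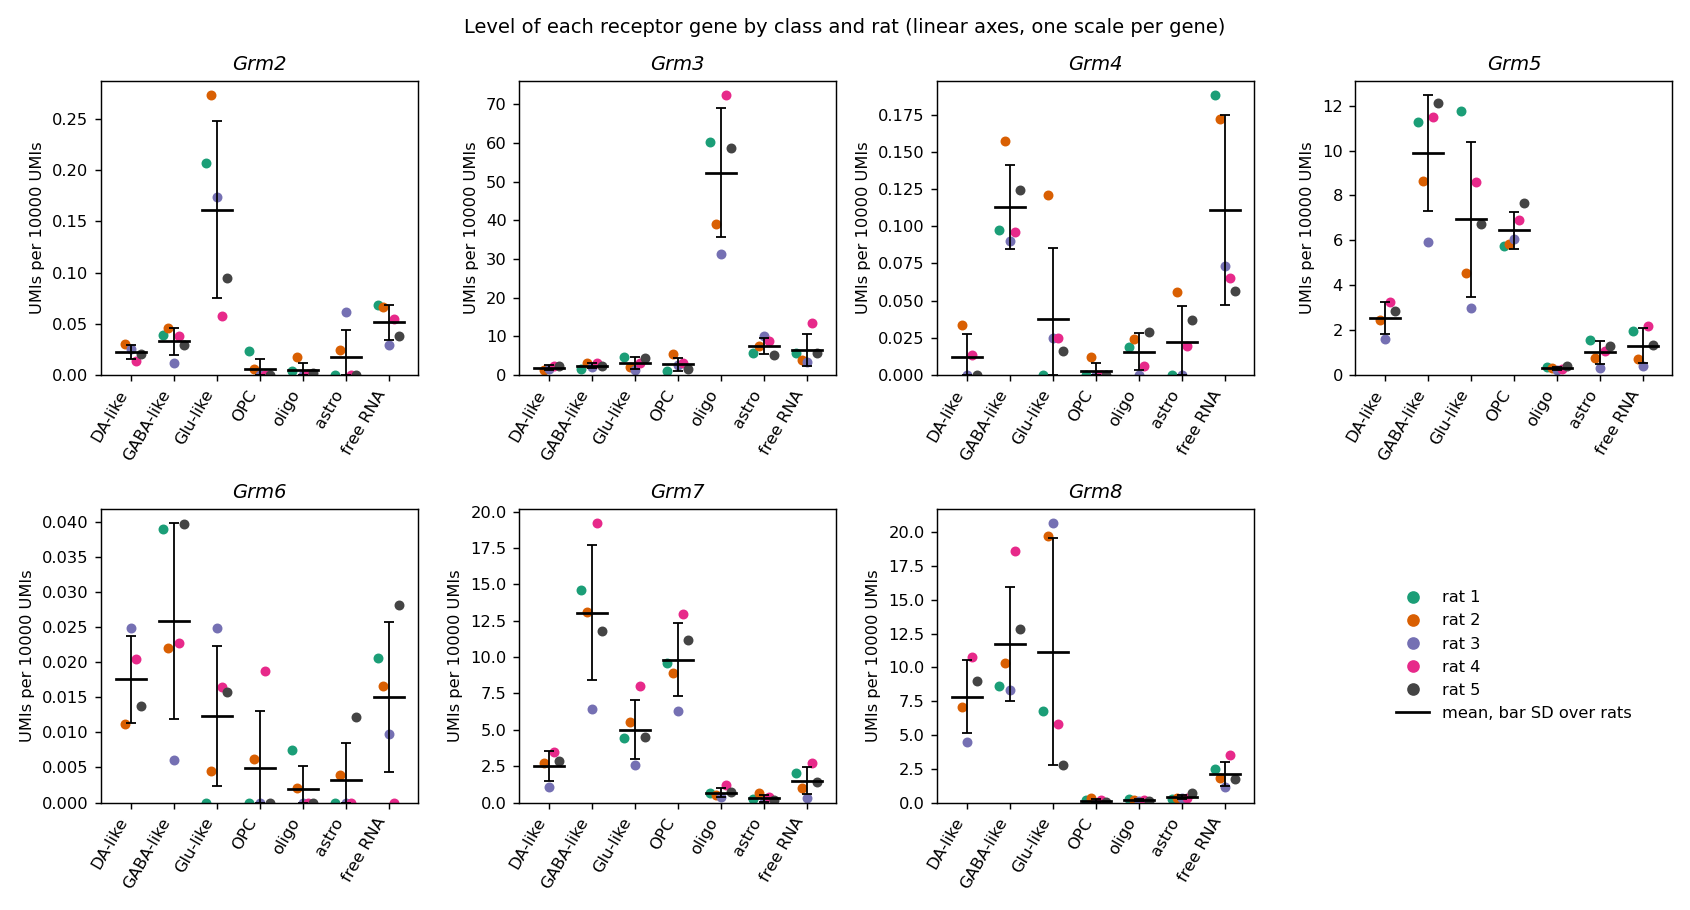
Levels of the 7 receptor genes (UMIs per 10000 UMIs) by class and in free RNA, with a point for each rat and the mean and SD of the rats. *Grm3* stands highest in oligodendrocytes at 31.4 to 72.5, *Grm5* and *Grm7* in neurons and OPCs, and *Grm8* in neurons, while *Grm2*, *Grm4* and *Grm6* reach at most 0.274.

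*Grm3* also differed within the oligodendrocytes. Sub-clusters were called Opalin-high or Opalin-low by their level of *Opalin*, a membrane protein of mature myelinating cells. In Opalin-high nuclei *Grm3* was 75.5, 54.6, 43.4, 97.0 and 77.3 in rats 1 to 5, and in Opalin-low nuclei 44.7, 26.1, 21.6, 49.7 and 42.0. It was higher in the Opalin-high nuclei of 5 of 5 rats, although the ranges over rats overlapped, since rat 3 in Opalin-high nuclei lay below rats 1 and 4 in Opalin-low nuclei. The log2 difference was 0.96 (SE 0.04, edgeR adjusted p = 3.52e-19), a 1.95-fold higher level. Without the replicate block the adjusted p was 0.0826. Of the 4 receptors tested between these classes 3 were called, against 32.2% of all 10591 genes tested. Among the sub-clusters, *Grm3* averaged 73.2 in the largest Opalin-high one (4252 nuclei), 50.4 in a smaller one (401 nuclei), and 49.7 and 16.2 in the Opalin-low ones (2930 and 1304 nuclei). The lowest of these still exceeded the neurons of the same rats.

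*Grm2*, the other group II receptor, was scarce and highest in glutamate-like neurons. Its level there was 0.207, 0.274, 0.174, 0.0577 and 0.0946 in rats 1 to 5, from 3, 61, 7, 7 and 6 UMIs. In GABA-like neurons it was 0.0390, 0.0457, 0.0120, 0.0378 and 0.0291, and in the dopaminergic-like neurons of rats 2 to 5 it was 0.0299, 0.0249, 0.0136 and 0.0206. Every glutamate-like value lay above every value of these classes. The log2 difference of GABA-like from glutamate-like neurons was -2.09 (SE 0.33, edgeR adjusted p = 0.000379) and that of dopaminergic-like from glutamate-like neurons -2.70 (SE 0.43, adjusted p = 0.000166). Without rat 2, which gave 61 of the 84 UMIs, the first was -1.65 and not past the threshold (adjusted p = 0.0595). Free RNA held *Grm2* at 0.0293 to 0.0685, which overlaps the GABA-like values and the lowest glutamate-like one, that of rat 4. Oligodendrocytes, OPCs and astrocytes held 19, 2 and 7 *Grm2* UMIs in all.

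*Grm5*, the group I receptor, was high in neurons and in OPCs. In neurons its level was 10.1, 6.38, 4.19, 9.02 and 9.02 in rats 1 to 5, and in OPCs it was 5.75, 5.85, 6.07, 6.90 and 7.65. In astrocytes it was 1.57, 0.732, 0.309, 1.08 and 1.31 and in oligodendrocytes 0.361, 0.298, 0.205, 0.241 and 0.374. Free RNA held *Grm5* at 0.391 to 2.17, which lies above all oligodendrocyte levels and overlaps those of astrocytes. Neurons and OPCs overlapped, and both lay above astrocytes and oligodendrocytes in every rat. Neurons exceeded oligodendrocytes by a log2 difference of 4.51 (SE 0.17, edgeR adjusted p = 2.55e-16) and astrocytes by 2.91 (SE 0.17, adjusted p = 9.35e-13), and OPCs exceeded astrocytes by 2.62 (SE 0.18, adjusted p = 2.34e-11). The difference of neurons from OPCs was 0.28 (SE 0.15) and missed the threshold (adjusted p = 0.124), but it passed with clusters centred per library (0.49, adjusted p = 0.00592) and with at least 1000 UMIs (0.43, adjusted p = 0.0392).

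*Grm7*, a group III receptor of presynaptic active zones, shared this pattern. Its neuronal level was 11.3, 8.73, 4.22, 12.5 and 8.43 in rats 1 to 5, and its OPC level was 9.62, 8.92, 6.29, 13 and 11.2. OPCs were the higher class in 4 of 5 rats, with a log2 difference of neurons from OPCs of -0.10 (SE 0.20, adjusted p = 0.72), which misses the threshold and does not show the levels to be equal. Oligodendrocytes held 0.631, 0.548, 0.358, 1.20 and 0.700 and astrocytes 0.215, 0.653, 0.0617, 0.405 and 0.171. Neurons exceeded oligodendrocytes by 3.54 (SE 0.23, edgeR adjusted p = 1.33e-12) and astrocytes by 4.59 (SE 0.27, adjusted p = 7.16e-13), and OPCs exceeded astrocytes by 4.69 (SE 0.27, adjusted p = 2.19e-12), on the log2 scale. Oligodendrocytes lay above astrocytes by 1.05 (SE 0.27, adjusted p = 0.00213), a call that was lost when doublets were kept (0.36, adjusted p = 0.194) and when nuclei were thinned (0.48, adjusted p = 0.163). Free RNA held *Grm7* at 2.01, 0.977, 0.332, 2.75 and 1.41 in rats 1 to 5, above the astrocytes of every rat and the oligodendrocytes of all but rat 3.

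*Grm8*, a further group III receptor, was neuronal. Its level in neurons was 13.5, 12.9, 9.92, 16.9 and 11.9 in rats 1 to 5. In OPCs it was 0.162, 0.307, 0, 0.215 and 0.0661, in oligodendrocytes 0.122 to 0.240, and in astrocytes 0.258 to 0.697. In rat 3 the count of 0 among 92197 OPC UMIs allows a level of up to 0.325. Neurons exceeded OPCs by a log2 difference of 6.11 (SE 0.29, edgeR adjusted p = 3.57e-14), a 69.1-fold higher level, oligodendrocytes by 5.98 (SE 0.25, adjusted p = 6.72e-16) and astrocytes by 4.97 (SE 0.26, adjusted p = 1.17e-13). All of these glial values lay under the free RNA of the same rat, which held *Grm8* at 2.47, 1.78, 1.15, 3.51 and 1.72. The called differences among glia, such as OPCs from astrocytes (-1.14, SE 0.34, adjusted p = 0.00961), are therefore between levels below that of free RNA, and without rat 5 this one was lost (-0.57, adjusted p = 0.148). With nuclei typed singly from marker counts it turned direction (2.27, adjusted p = 1.79e-06), oligodendrocytes minus OPCs became -3.38 (adjusted p = 1.6e-09), and the difference of neurons from OPCs shrank to 2.14 (adjusted p = 1.2e-06).

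Neuron markers were also found in the OPC nuclei. They summed to 8.35 to 12.9 per 10000 UMIs in OPCs. The ratios to these markers were also added after the levels were seen. Per 100 UMIs of those 6 markers, *Grm5* gave 54.7, 45.2, 72.7, 66.3 and 63.2 UMIs in the OPCs of rats 1 to 5 against 24.6, 9.93, 10.4, 15.5 and 16.2 in neurons. *Grm7* gave 91.6, 68.9, 75.3, 125 and 92.5 in OPCs against 27.7, 13.6, 10.5, 21.5 and 15.1 in neurons. *Grm8* went the other way, with 1.54, 2.37, 0, 2.06 and 0.546 in OPCs against 32.9, 20, 24.8, 29.1 and 21.4 in neurons. Both *Grm5* and *Grm7* were thus above the neuronal ratio in the OPCs of every rat. Other glia were above it in some rats, astrocytes for *Grm5* in rats 1, 4 and 5 (38.8, 35.9 and 27.9) and oligodendrocytes for *Grm7* in rats 3, 4 and 5 (11.5, 45.3 and 23.2). In thinned nuclei, 53.6% ± 9.10 (SD, n = 5 rats) of OPCs and 43.6% ± 10.3 of neurons held *Grm7*, against 2.27% ± 1.58 of astrocytes, and 36.3% ± 7.94 of OPCs and 44.0% ± 10.8 of neurons held *Grm5*, against 6.03% ± 3.71 of astrocytes. Only 1.49% ± 1.63 of OPCs held *Grm8*, below the 2.49% ± 1.76 of astrocytes. Without thinning, 71.9% of OPCs held *Grm7*, 60.3% *Grm5* and 6.41% *Grm8*, against 6.42%, 14.3% and 8.22% of astrocytes, where the median depth over rats was 781.5 to 6518 UMIs, and 780 to 7644 in OPCs. By an upper estimate from the neuron markers, free RNA made up 28 to 61.9% of the OPC sums and 11.8 to 43.5% of the astrocyte sums. With it subtracted, OPCs exceeded astrocytes in *Grm5* by 3.15 on the log2 scale (edgeR adjusted p = 2.13e-05). For *Grm7* the subtraction left astrocytes at a mean of 0.0896, near 0, so no fold is given.

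Counted over the receptors, 4 of the 4 tested were called between neurons and oligodendrocytes, where 72.7% of all 11547 genes were called. Between neurons and OPCs 1 of 4 was called, *Grm8*, against 50.1% of all genes. Without rat 1 or without rat 3, *Grm4* also passed the filter and was called higher in neurons (adjusted p = 4.48e-05 and 7.62e-05), with 2 UMIs in all OPCs, both from rat 2. Neurons and astrocytes differed in 4 of 4 (60.7% of all genes), oligodendrocytes and OPCs in 3 of 4 (48.7%), oligodendrocytes and astrocytes in 4 of 4 (50.3%), and OPCs and astrocytes in 4 of 4 (37.8%). With so large a share of all genes called, the counts do not set the receptors apart.

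**Figure D2:**
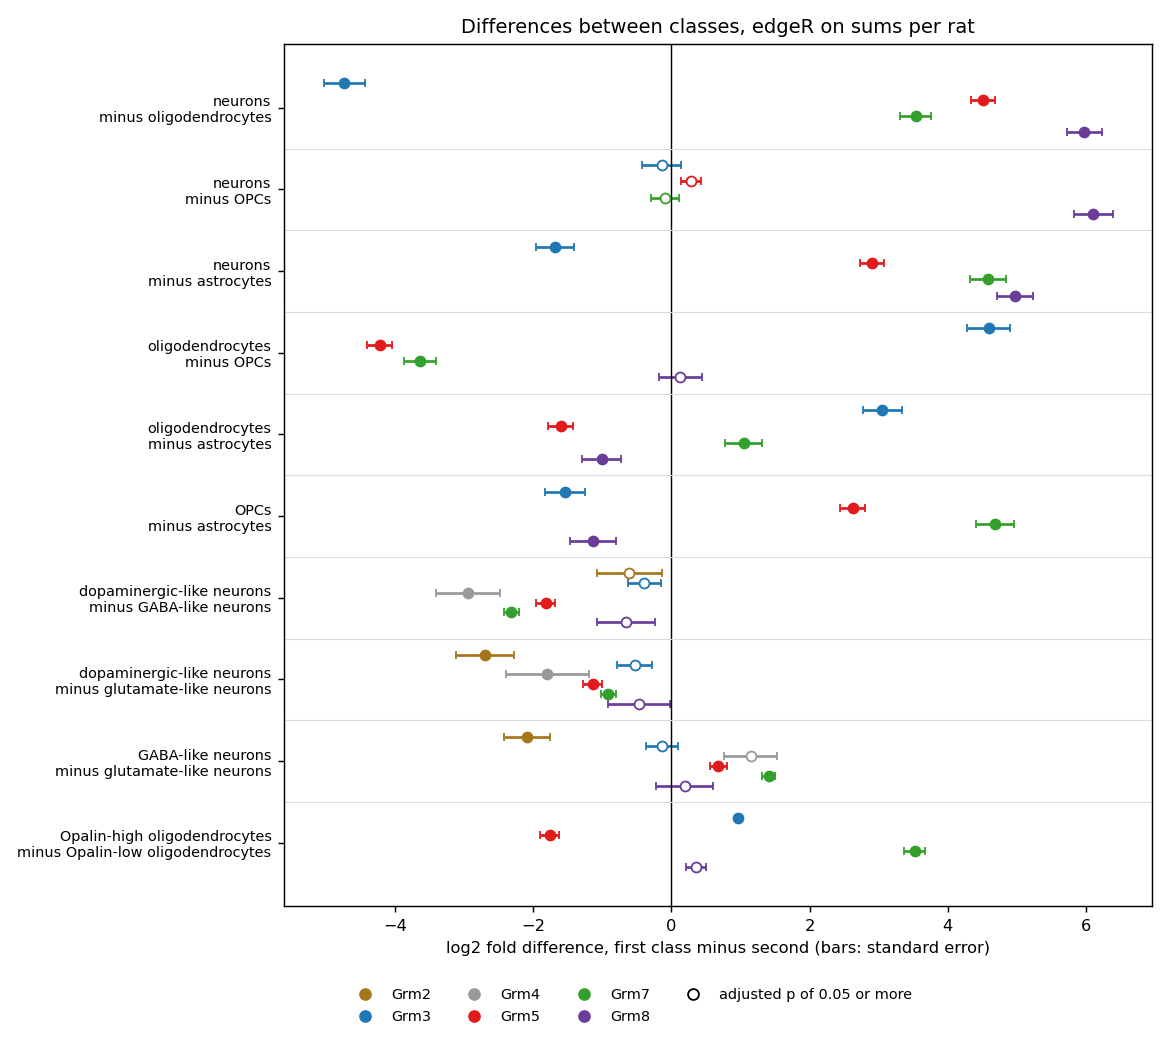
Log2 differences with SE between classes for the receptors that passed the filter in each fit. Filled points have an edgeR adjusted p under 0.05 and open points do not. *Grm3* lies lowest in neurons minus oligodendrocytes at -4.74 and *Grm8* highest in neurons minus OPCs at 6.11.

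The neuron classes differed in their receptors. Of the 3 classes compared, GABA-like neurons had the most *Grm7* and *Grm5* on average, and dopaminergic-like neurons had the least. *Grm7* was 14.6, 13.1, 6.42, 19.2 and 11.8 in the GABA-like neurons of rats 1 to 5, 4.41, 5.54, 2.58, 8.04 and 4.53 in glutamate-like neurons, and 2.72, 1.08, 3.47 and 2.87 in the dopaminergic-like neurons of rats 2 to 5, since rat 1 gave only 8 such nuclei and was left out of that class. GABA-like and dopaminergic-like neurons did not overlap. *Grm7* was lower in dopaminergic-like than in GABA-like neurons by a log2 difference of -2.32 (SE 0.11, edgeR adjusted p = 1.05e-10), a 5-fold lower level, and than in glutamate-like neurons by -0.91 (SE 0.11, adjusted p = 8.42e-06). GABA-like neurons exceeded glutamate-like neurons by 1.41 (SE 0.10, adjusted p = 6.87e-08) in 5 of 5 rats, a call that was lost when each nucleus was typed by its own markers (0.64, adjusted p = 0.703). The call against glutamate-like neurons of the dopaminergic-like class was lost without the replicate block (adjusted p = 0.182).

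*Grm5* was 11.3, 8.65, 5.93, 11.5 and 12.1 in GABA-like neurons, 11.8, 4.53, 2.98, 8.62 and 6.74 in glutamate-like neurons, and 2.44, 1.59, 3.23 and 2.86 in dopaminergic-like neurons of rats 2 to 5. Dopaminergic-like neurons were the lowest class in each of these 4 rats. The log2 difference of dopaminergic-like from GABA-like neurons was -1.82 (SE 0.14, edgeR adjusted p = 2.28e-08), a 3.53-fold lower level, and from glutamate-like neurons -1.14 (SE 0.14, adjusted p = 1.23e-05). GABA-like neurons exceeded glutamate-like neurons by 0.68 (SE 0.12, adjusted p = 0.00158) in 4 of 5 rats, all but rat 1. That call was lost without the replicate block (adjusted p = 0.891) and with nuclei typed by their own markers (0.53, adjusted p = 0.392). The glutamate-like class differed in make-up between rats. Its sub-clusters led by *Ttc29* and with *Slc17a7* (232 and 127 nuclei) came mostly or only from rats 2 and 3. They averaged 2.17 and 2.82 for *Grm5* and 3.91 and 2.955 for *Grm7*, against 7.71 and 5.18 in the sub-cluster that all rats held. Rat 1 gave 18 glutamate-like nuclei, 17 of them in the latter. The part of this in these differences was not tested.

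*Grm4*, a group III receptor of axon terminals, was scarce and on average highest in GABA-like neurons, at 0.0976, 0.158, 0.0900, 0.0959 and 0.124 in rats 1 to 5 from 5 to 107 UMIs. In the dopaminergic-like neurons of rats 2 to 5 it was 0.0337, 0, 0.0136 and 0, from 11 UMIs in all. These classes did not overlap, and the log2 difference was -2.94 (SE 0.46, edgeR adjusted p = 0.000112). GABA-like neurons exceeded glutamate-like neurons in 5 of 5 rats, but the ranges overlapped and the log2 difference of 1.15 (SE 0.38) missed the threshold (adjusted p = 0.0888). Against glutamate-like neurons, which held 32 UMIs of which 27 came from rat 2, dopaminergic-like neurons differed by -1.80 (SE 0.60, adjusted p = 0.0457), a call that was lost without any 1 of rats 2 to 5 (adjusted p = 0.062 to 0.366). Free RNA held *Grm4* at 0.0563 to 0.188, which overlaps the GABA-like values. *Grm6*, known as the glutamate receptor of retinal ON bipolar cells, gave 66 UMIs in all neurons, 4 in oligodendrocytes, 3 in OPCs and 2 in astrocytes. Its level was at most 0.0342 in neurons, free RNA reached 0.0282, and it did not pass the filter on low counts. Without that filter it was called higher in neurons than in oligodendrocytes (adjusted p = 2.24e-07) and astrocytes (adjusted p = 0.0474).

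Of the 6 receptors tested among neuron classes, 3 were called between dopaminergic-like and GABA-like neurons, where 23.2% of 11351 genes were called, 4 between dopaminergic-like and glutamate-like neurons (18.4%), and 3 between GABA-like and glutamate-like neurons (7.66%). *Grm3* was called in none of the 3, with levels of 1.60 to 3.05 in GABA-like, 1.24 to 4.69 in glutamate-like and 1.33 to 2.40 in dopaminergic-like neurons.

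*Grm8* was called in none of them either, and its spread over rats was wide. With nuclei typed by their own markers it was called lower in dopaminergic-like than in GABA-like (-0.86, adjusted p = 0.0107) and glutamate-like neurons (-1.50, adjusted p = 7.13e-05). It was 8.61, 10.4, 8.35, 18.6 and 12.8 in the GABA-like neurons of rats 1 to 5, 6.75, 19.7, 20.7, 5.84 and 2.79 in glutamate-like neurons, and 7.07, 4.45, 10.8 and 8.99 in dopaminergic-like neurons of rats 2 to 5. Rats 2 and 3 stood above the others in glutamate-like neurons. Both held the *Slc17a7* sub-cluster of 127 nuclei, 48 in rat 2 and 79 in rat 3, and no other rat did. In it *Grm8* was 73.8 in rat 2 and 55.8 in rat 3. With that sub-cluster left out, a choice made after the data were seen, glutamate-like *Grm8* was 6.75, 7.35, 5.36, 5.84 and 2.79. That choice takes the highest *Grm8* out of the glutamate-like class alone, so nothing is read from these values against the other classes. With all sub-clusters the log2 difference of GABA-like from glutamate-like neurons was 0.19 (SE 0.41, edgeR adjusted p = 0.937).

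**Figure D3:**
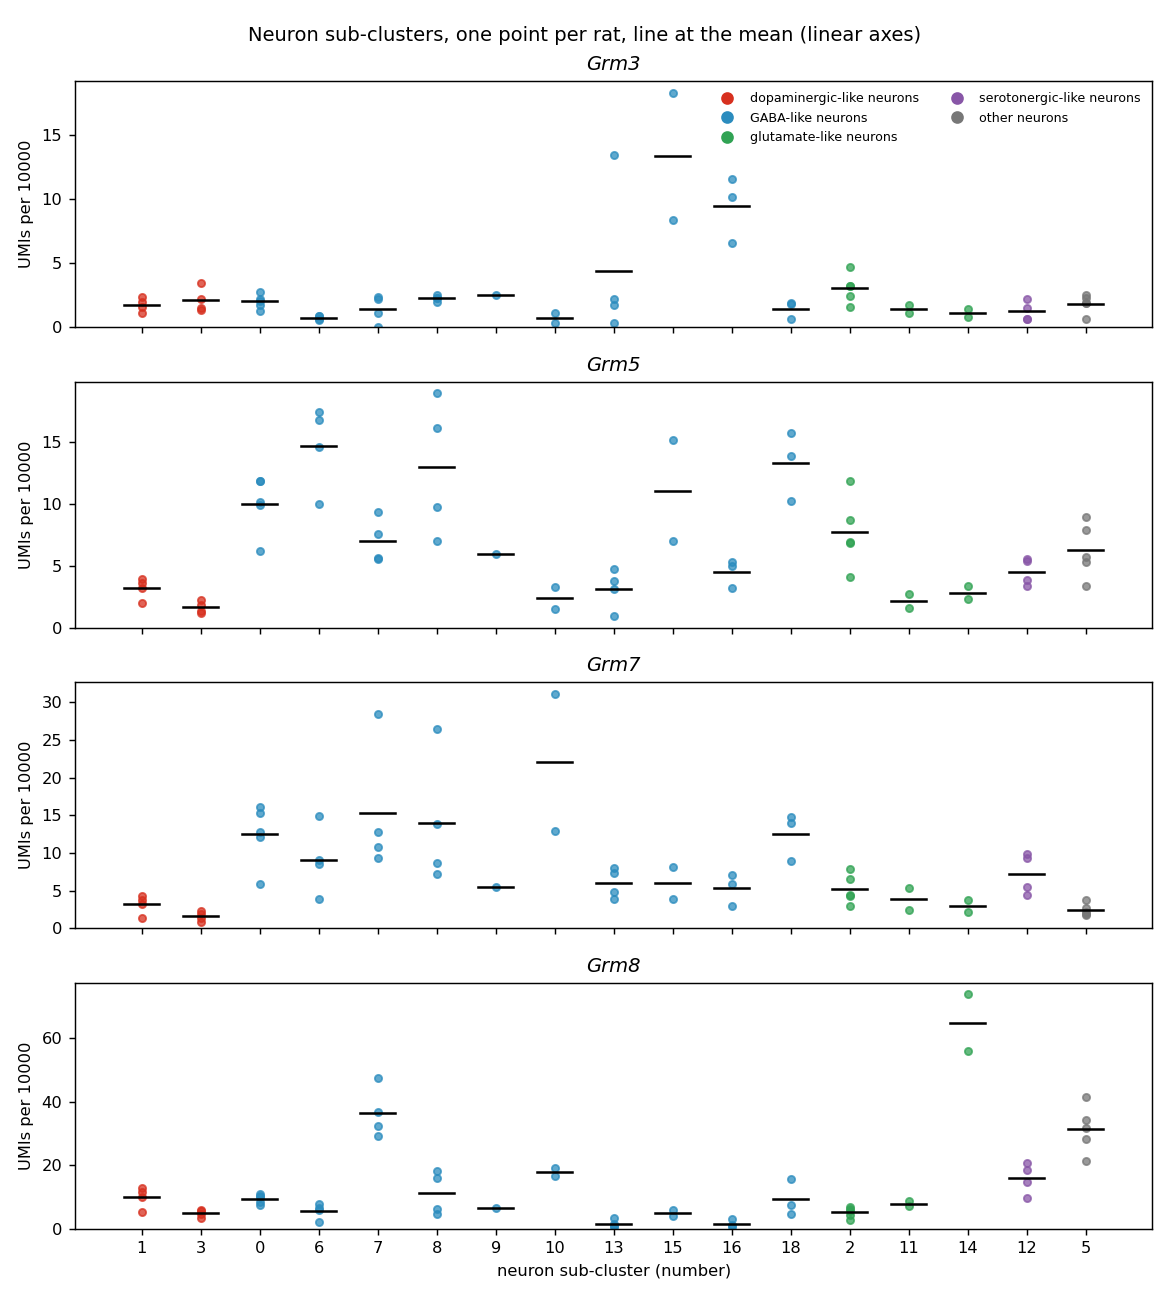
Levels of *Grm3*, *Grm5*, *Grm7* and *Grm8* (UMIs per 10000 UMIs) in the sub-clusters of neurons, with a point for each rat of at least 10 nuclei. *Grm8* runs from a mean of 1.55 to 64.8 and the mean of *Grm3* from 0.725 to 13.4.

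The 16 neuron sub-clusters with at least 10 nuclei in 2 or more rats are finer parts of the neurons. A wider spread of levels over them follows from the split. A further GABA-like one of 280 nuclei, 273 of them from rat 3, held *Grm5* at 5.93, *Grm7* at 5.46 and *Grm8* at 6.45 in that rat. Besides the *Slc17a7* sub-cluster, *Grm8* was high in a GABA-like one led by *Sox6*, *Pdgfd* and *Glis3* (329 nuclei, mean 36.5, 29.3 to 47.6 in 4 rats), which also held the highest sums of OPC markers (mean 9.76, 7.31 to 13.1) and astrocyte markers (7.58) of the neuron sub-clusters. The part of these markers in its *Grm8* was not tested. *Grm8* was also high in the neurons with both *Gad2* and *Slc17a6*, led by *Slc26a7*, *Npsr1* and *Reln* (347 nuclei). In the latter it was 41.4, 31.7, 21.3, 34.3 and 28.2 in rats 1 to 5, and 84.1% ± 9.99 (SD, n = 5 rats) of their thinned nuclei held it. These neurons also held *Th* at 1.77 and *Slc6a3* at 1.11 UMIs per 10000, and they were placed in none of the 3 classes. With clusters centred per library or with doublets kept, the cluster with the same first leading genes (340 nuclei in each) was named dopaminergic-like, and in those settings *Grm8* was higher in dopaminergic-like than in GABA-like (0.43 and 0.53) and glutamate-like neurons (0.55 and 0.81) on the log2 scale, without a call. The lowest *Grm8* was in 2 GABA-like sub-clusters, 1 led by *Pax5* (1.55) and 1 led by *Penk* (1.63, 0.681 to 3.28 in 4 rats).

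*Grm7* was highest in a GABA-like sub-cluster led by *Pax3* (12.9 and 31.2 in 2 rats) and lowest in a dopaminergic-like one with *Slc6a3*, the dopamine transporter, among its leading genes (mean 1.59, 0.813 to 2.34 in 4 rats). *Grm5* was lowest in the same dopaminergic-like sub-cluster (1.64, 1.17 to 2.21) and highest in a GABA-like one with *Sox14* (14.7, 10.0 to 17.5 in 4 rats). The other dopaminergic-like sub-cluster, led by *Col24a1* and *Aldh1a1*, held *Grm5* at 3.19 (2 to 3.94), *Grm7* at 3.19 (1.34 to 4.35) and *Grm8* at 9.91, against 4.91 for *Grm8* in the first. Other sub-clusters were lower than this one. *Grm5* averaged 2.39 in the *Pax3* sub-cluster and 2.17 in the glutamate-like one led by *Ttc29*. *Grm7* averaged 2.44 in the neurons with both *Gad2* and *Slc17a6*. *Grm2* averaged 0.324 in the glutamate-like sub-cluster led by *Ttc29* (2 rats) and 0.284 in the *Slc17a7* sub-cluster. These sub-cluster levels are descriptions with no test.

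*Grm3* was not low in every neuron. In a GABA-like sub-cluster with *Gata3*, *Sox5* and *Grm3* itself among its leading genes (116 nuclei), it was 8.39 and 18.3 in 2 rats, and in the one led by *Pax5* it averaged 9.45 (6.60 to 11.6 in 3 rats, 104 nuclei). Oligodendrocyte markers summed to 5.03 to 24.8 and 11.7 to 25.9 per 10000 UMIs in them, against 7.24 to 30 in the largest GABA-like sub-cluster, whose *Grm3* averaged 2.01. In the *Penk* sub-cluster *Grm3* ran from 0.329 to 13.5, with oligodendrocyte markers at 7.90 to 48.8.

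In oligodendrocytes, *Grm7* and *Grm5* divided the Opalin classes in opposite directions. *Grm7* was 1.08, 1.02, 0.765, 2.37 and 1.36 in the Opalin-high nuclei of rats 1 to 5 and 0.174, 0.159, 0.0233, 0.119 and 0.107 in Opalin-low nuclei, with no overlap. The log2 difference was 3.52 (SE 0.15, edgeR adjusted p = 4.05e-20), an 11.5-fold higher level. *Grm5* was 0.127, 0.145, 0.170, 0.114 and 0.123 in Opalin-high nuclei and 0.598, 0.423, 0.233, 0.359 and 0.599 in Opalin-low nuclei, again with no overlap, and the log2 difference was -1.77 (SE 0.14, adjusted p = 4.82e-13). *Grm8* missed the threshold (0.36, SE 0.14, adjusted p = 0.0529). Neuron markers summed to 3 to 6.94 in Opalin-high and 2.33 to 5.45 in Opalin-low nuclei, and OPC markers to 1.10 to 1.33 and 0.513 to 1.19. Free RNA held *Grm7* at 0.332 to 2.75 and *Grm5* at 0.391 to 2.17, and the part of these in the low levels was not tested.

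**Figure D4:**
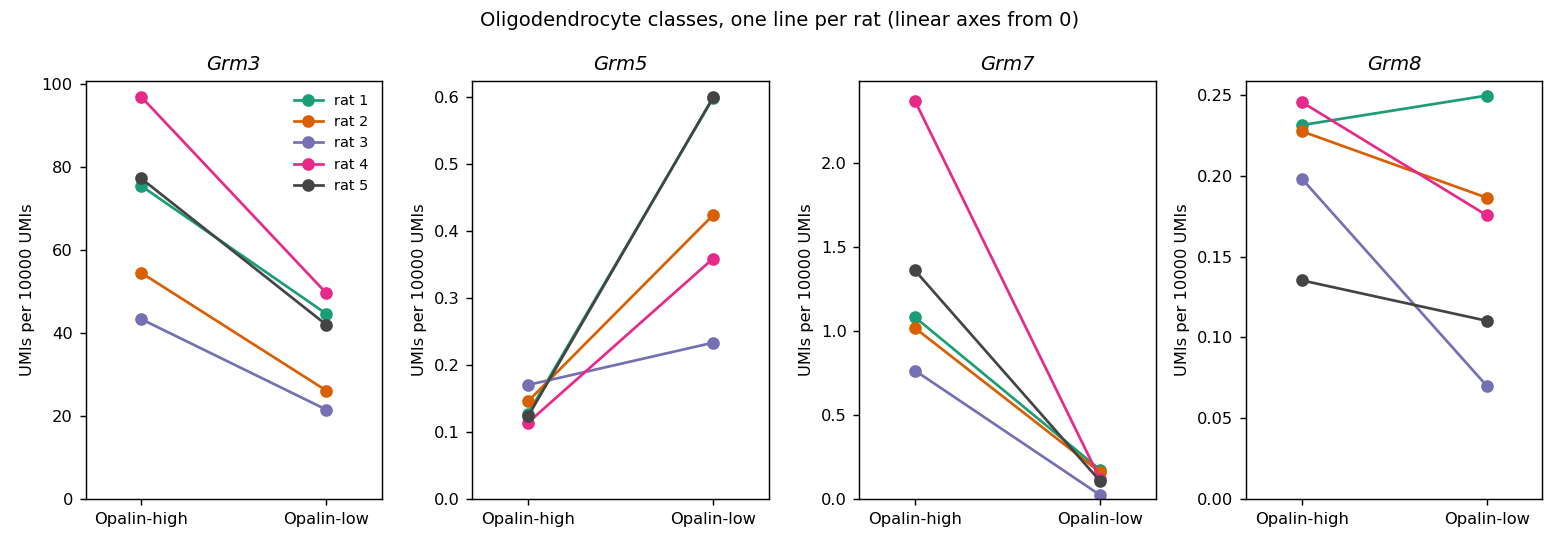
Levels of *Grm3*, *Grm5*, *Grm7* and *Grm8* (UMIs per 10000 UMIs) in Opalin-high and Opalin-low oligodendrocytes, with a line for each rat. *Grm3* and *Grm7* fall from Opalin-high to Opalin-low in all 5 rats and *Grm5* rises in all 5.

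Oligodendrocyte *Grm7* was highest in 1 sub-cluster of 401 nuclei led by *Rras2*, *Cemip2* and *Pcdh17*, with *Grm7* itself among its 10 leading genes. Its level there was 1.86, 4.27, 3.83, 13.6 and 6.25 in rats 1 to 5, from 57, 274, 21, 901 and 217 UMIs. The larger Opalin-high sub-cluster held 0.851, 0.442, 0.201, 0.626 and 0.550, still above both Opalin-low ones in each rat. Neuron markers in the small sub-cluster summed to 2.19 to 6.30 and OPC markers to 1.14 to 2.04, against 3.06 to 7.05 and 1.04 to 1.36 in the larger one. In the main clustering a cluster of 395 nuclei, with these 3 genes and the OPC marker *Tnr* among its leading genes, held markers of both types. It was clustered again, and parts of 93 (all from rat 3), 76 and 67 nuclei were named OPCs. Parts of 44 and 29 nuclei were named oligodendrocytes. With doublets kept, a sub-cluster of 171 nuclei with *Rras2*, *Cemip2* and *Pcdh17* among its leading genes also had *Tnr* there. It was left out of the oligodendrocytes in that setting. The part of OPC RNA in this *Grm7* was not tested.

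The order of the classes differed from receptor to receptor. For *Grm3* it ran from oligodendrocytes to astrocytes, glutamate-like neurons, OPCs, GABA-like and dopaminergic-like neurons, and the last 4 overlapped. For *Grm5* it ran from GABA-like to glutamate-like neurons and OPCs, which overlapped as neighbours, then to dopaminergic-like neurons and, overlapping each other, astrocytes and oligodendrocytes. *Grm7* had OPCs between GABA-like and glutamate-like neurons, and neighbours overlapped throughout. For *Grm8* the 3 neuron classes overlapped and stood apart from all glia.

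Genes of the receptors' signalling pathways took part in the clustering, so their differences between classes are descriptions. Of 10 genes tested of group I signalling, 8 were higher and 1 lower in neurons than in oligodendrocytes, with a median log2 difference of 3.23 (all genes -0.02, 72.7% of them called). The postsynaptic scaffolds *Shank3* (5.70, SE 0.21, edgeR adjusted p = 9.41e-17) and *Shank2* (5.05, SE 0.20, adjusted p = 3.55e-16) led. Against OPCs the same list had 8 higher and 1 lower in neurons at a median of 1.60 (all genes 0.04, 50.1% of them called), and the lower 1 was *Homer3*, a scaffold that binds *Grm5* protein. Its level was near 0 in both, at 0.00610 in neurons and 0.0431 in OPCs on average, so no fold is given. Between dopaminergic-like and GABA-like neurons 5 were higher and 1 lower at a median of 0.32 (all genes -0.02, 23.2% of them called), with *Homer2* at 1.62 (SE 0.11, adjusted p = 3.63e-09) and the calcium release channel gene *Itpr1* at 1.24 (SE 0.13, adjusted p = 1.68e-06), so these were higher where *Grm5* was lower.

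Of 11 genes tested of Gi/o signalling, 5 were higher and 4 lower in neurons than in oligodendrocytes, at a median of -0.04 (all genes -0.02, 72.7% of them called). *Adcy8*, a calcium-stimulated adenylyl cyclase, was lower in dopaminergic-like neurons than in GABA-like (-2.56, SE 0.15, edgeR adjusted p = 1.14e-09) and glutamate-like neurons (-2.99, SE 0.16, adjusted p = 7.34e-10), while the G protein subunit gene *Gnai1* was higher than in both (1.35 and 1.49). *Adcy8* was the 1 lower gene of the 11 in both comparisons. Against GABA-like neurons 5 were higher, at a median of 0.32 (all genes -0.02, 23.2% of them called). Against glutamate-like neurons 4 were higher, at a median of 0.31 (all genes -0.01, 18.4% of them called). Between Opalin-high and Opalin-low nuclei 0 of 9 were higher and 2 lower, against 32.2% of all genes called, *Gnai1* at -0.34 and *Adcy5* at -0.24. Of 7 partners of group III receptors tested, 6 were higher and 1 lower in neurons than in oligodendrocytes at a median of 3.04 (all genes -0.02, 72.7% of them called), led by the calcium channel genes *Cacna1a* (5.28) and *Cacna1b* (4.32). *Grip1*, which encodes a PDZ scaffold, was like *Grm7* higher in Opalin-high nuclei (1.13, SE 0.14, adjusted p = 5.37e-08) and lower in dopaminergic-like than GABA-like neurons (-0.83, SE 0.10, adjusted p = 7.9e-06). It was the 1 partner that was lower in the latter comparison, where 3 of 7 were higher, among them *Elfn1* (0.67, adjusted p = 0.00106), which encodes a postsynaptic partner of *Grm7* protein, and *Cacna1a* (0.45, adjusted p = 0.000564), and 23.2% of all genes were called. Between the Opalin classes 2 of 6 partners tested were higher and 1 lower, *Cacna1b* (-0.40, edgeR adjusted p = 0.0138), against 32.2% of all genes called.

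Of the 7 genes of glutamate supply and of N-acetylaspartylglutamate (NAAG), a peptide ligand of the *Grm3* receptor, 3 were higher and 3 lower in neurons than in astrocytes at a median of -0.39 (all genes -0.02, 60.7% of them called). *Folh1*, whose enzyme cleaves NAAG, was 6.51 ± 0.829 (SD, n = 5) in astrocytes, 1.31 ± 0.425 in oligodendrocytes, 1.13 ± 0.0672 in OPCs and 0.106 ± 0.0217 in neurons, with a log2 difference of neurons from astrocytes of -5.94 (SE 0.16, edgeR adjusted p = 1.97e-17). *Naalad2*, a related peptidase, was scarce, at 0.0869 ± 0.0374 in oligodendrocytes and at most 0.00398 in the astrocytes of any rat, so no fold is given between them. It was higher in Opalin-high than in Opalin-low nuclei (0.88, SE 0.23, adjusted p = 0.00261). Of the 7 genes, 2 were higher and 3 lower in Opalin-high nuclei, against 32.2% of all genes called. Among the lower were *Rimklb* (-1.215, edgeR adjusted p = 0.00335) and *Rimkla* (-0.8155, adjusted p = 0.000467). *Rimkla*, which encodes a NAAG synthetase, was higher in neurons than in oligodendrocytes (1.72, SE 0.19, adjusted p = 1.8e-08).

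The genes most alike in pattern were found over 29 sums of 6 classes in 5 rats by Pearson correlation of log2 levels among 9975 genes. The sums share libraries and depth, so these values are descriptions. *Grm3* was most like *Fnbp1* (r = 0.968), *Eml1* and *Piga*. *Grm5* was most like *Pde8b* (0.951), *Susd4* and *Sh3pxd2a*, and *Grm7* like *Fstl4* (0.953), AABR07057765.1 and *Gria4* (0.938), an AMPA receptor subunit. *Grm8* was most like *Zfp385b* (0.974), *Snhg11* and *Patj*. The scarce *Grm2* was most like *Slc17a6* (0.836), the vesicular transporter that marks glutamate neurons, AC123346.1 and *Ptpn3*, and *Grm4* like *Pnoc* (0.872), *Gad1* and *Nox4*. For *Grm6*, whose sums held few or no UMIs, *Apex2* (0.804), *B4galnt4* and *Glra1* came first.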

How the data were processed

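Nuclei of the VTA of 5 rats were captured in droplets with a 3′ tag chemistry and UMIs, 1 library per rat. The authors deposited unfiltered raw UMI counts per gene and barcode from Cell Ranger (version 8.0.1 per the labels, another version in the matrix headers), and the genome build is not given in the sources used here. The later steps of the study, among them removal of free RNA and doublets, were not in the deposited counts.

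Barcodes with at least 600 UMIs, more than 200 and fewer than 5000 genes and under 5% mitochondrial UMIs were kept. Scrublet's automatic threshold marked 0 or 1 barcode per library, so the top 5% of doublet scores were removed. The 33350 nuclei left were clustered (scanpy 1.11.5, leidenalg 0.10.2, 30 principal components, 20 neighbours, resolution 1.0, or 0.5 for oligodendrocytes) on 2000 variable genes without *Grm* and mitochondrial genes, neurons and oligodendrocytes were clustered again, and clusters were named from marker lists. Naming thresholds were set after the clusters were seen. The receptors and lists were chosen with earlier results of these data known, and 1 gene of the group I list is not reported here. Genes were named by being members, the called genes with the 3 largest differences of each list in each comparison, or the 3 most alike in pattern.

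UMIs were summed per rat and class of at least 10 nuclei and tested in edgeR 4.0.16 (R 4.3.3) by the quasi-likelihood test with TMM scaling, filterByExpr and the rat as a block, with Benjamini-Hochberg adjustment over all genes tested. The test was also run on simulated counts, and the outcome of that run is not given here. The sums of a rat come from the same library, which pairs them, and their deviations from the class means correlated at 0.248 to 0.842 over 30 pairs of classes, 0.282 to 0.938 over 13 pairs of neuron classes and 0.697 to 0.939 over 5 pairs of oligodendrocyte classes. The labels do not tie libraries to animals, so n counts libraries, taken as 1 rat each from the study's 5 rats and 5 samples. Counting error alone sets the limit of 3 counts used where a level was 0. Alternatives were DESeq2 1.42.0 (test and size factors), no filter, no block, at least 1000 UMIs, doublets kept, nuclei typed by their own markers, clusters centred per library, free RNA subtracted, thinning to 1000 UMIs, clusters of 1 library left out, and each rat left out. Leaving out the *Slc17a7* sub-cluster and the ratios of receptor UMIs to marker UMIs were chosen after seeing the data.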

Additional observations from a re-analysis of the deposited data

Results flagged for a closer look

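*Grm8* in the astrocytes of rat 5 stood apart from the other rats, at 0.697 UMIs per 10000 against 0.258 to 0.370 in rats 1 to 4. The gap to the next rat was 0.744 of the whole range of the 5, past Dixon's limit. Of 33 groups looked at in this way only this one passed, and chance alone passes about 1 in 20. Without rat 5 the *Grm8* differences of oligodendrocytes from astrocytes (-0.51, edgeR adjusted p = 0.101) and of OPCs from astrocytes (-0.57, adjusted p = 0.148) were no longer called. All these levels lay below the free RNA of rat 5, which held *Grm8* at 1.72.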

How the results depend on the processing

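Of the counts of receptors called, 161 of the alternative values stayed within 1.5 times the reported count and 14 did not. Without the filter on low counts, which lets 7 receptors into each fit, 7 were called between neurons and oligodendrocytes, 7 between neurons and astrocytes, 3 between neurons and OPCs and 5 between dopaminergic-like and GABA-like neurons. Of all genes, 11300, 8301 and 6690 of 23900 and 3216 of 22630 were called in these comparisons. Between neurons and OPCs, 2 were called with at least 1000 UMIs, with doublets kept and with nuclei typed by their own markers, 3 with clusters centred per library, and 1 to 2 with each rat left out (2 without rat 1 or rat 3, *Grm4* and *Grm8*). Between dopaminergic-like and glutamate-like neurons 2 were called after thinning, where 781 of 6200 genes were called. Between GABA-like and glutamate-like neurons 0 were called in edgeR with nuclei typed by their own markers, and 5 without the *Slc17a7* sub-cluster, which takes the highest *Grm8* out of 1 class only. Of all genes, 136 of 8833 and 916 of 11378 were called there, so the first of these settings called few genes of any kind. The causes were not tested.

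Without the replicate block the call was lost for 2 of the 4 receptors between dopaminergic-like and glutamate-like neurons, *Grm4* (adjusted p = 0.346) and *Grm7* (adjusted p = 0.182), which left 2. In that setting 607 of all 11351 genes were called. It was also lost for *Grm5* between GABA-like and glutamate-like neurons (adjusted p = 0.891) and for *Grm3* between the Opalin classes (adjusted p = 0.0826). The block changed no other call.

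Of the single differences, 660 values kept direction and call, 24 passed the threshold only under the alternative, 25 lost it, and 23 changed direction. The reversed differences of neurons from OPCs were 0.016 for *Grm7* with centred clusters, 1.36 for *Grm3* and -0.075 for *Grm5* with free RNA subtracted, 0.18 for *Grm3* after thinning and 0.30 for *Grm3* without rat 2, where leaving out each rat gave -0.35 to 0.30. *Grm8* reversed between oligodendrocytes and OPCs with doublets kept (-0.077), own markers (-3.38, adjusted p = 1.6e-09), centred clusters (-0.47) and thinning (-0.29), and between OPCs and astrocytes with own markers (2.27, adjusted p = 1.79e-06). Between dopaminergic-like and GABA-like neurons it reversed with doublets kept (0.53) and centred clusters (0.43), and between dopaminergic-like and glutamate-like neurons with doublets kept (0.81), centred clusters (0.55), clusters of 1 library left out (0.69), the *Slc17a7* sub-cluster left out (0.53) and without rat 3 (0.14, with each rat left out -0.97 to 0.14). Between GABA-like and glutamate-like neurons it reversed with own markers (-0.64) and without rat 4 or rat 5 (with each rat left out -0.22 to 0.70), and *Grm3* reversed after thinning (0.049) and without rat 1 or rat 5 (with each rat left out -0.42 to 0.069). None of these differences had been called before except that of *Grm8* between OPCs and astrocytes. Few UMIs limit *Grm2*, *Grm4* and *Grm6*, and *Grm8* in glia.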
